A study of Arabidopsis thaliana with 12 samples.

Results

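The 10 genes described here encode the histone H3 lysine 4 (H3K4) methyltransferases ATX1 to ATX5, SDG25 and SDG2 of Arabidopsis and the COMPASS core subunits WDR5A, RBL and ASH2R. They were taken by gene identifier from an RNA comparison of 33557 genes, and all 10 were found and had been tested by the authors. The leaves compared were atx3/4/5 mutant, sdg2 mutant and wild type, all of the Columbia (Col-0) accession, as rosette leaves of plants 4 weeks old kept in long days (16 h light, 22 °C; 8 h dark, 20 °C). H3K4me2 peaks were given for atx3/4/5 and wild type, and H3K4me3 peaks for atx3/4/5, sdg2 and wild type, each from 1 chromatin immunoprecipitation (ChIP-seq) library. RNA was given for atx3/4/5 and wild type as 1 value each, into which the authors had combined 2 libraries. RNA of sdg2 was not analysed here. The alleles and the number of plants per sample are nowhere stated in the sources used here. With 1 value per genotype and measure, no spread between samples can be given for any number below, and the depth of the libraries is unknown.

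H3K4 methyltransferases carry a catalytic SET domain that moves methyl groups onto H3K4, and many of them work with a core of WDR5, RbBP5 and ASH2 proteins known as COMPASS. H3K4me3 sits mainly at the beginnings of transcribed genes, and in plants H3K4me2 spreads further into gene bodies and also covers poorly transcribed genes. In Arabidopsis SDG2 (also ATXR3) is known as a major H3K4me3 enzyme, ATX1 and SDG25 (also ATXR7) are known for keeping the floral repressor gene FLC active, and ATX3, ATX4 and ATX5 form a subgroup of their own.

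In RNA, 1 of the 10 genes was called, SDG2, which was higher in atx3/4/5. A gene was called at a q under 0.05. By that rule 10.3% of 19021 tested genes were called in the authors' deposited table, 4.92% as higher and 5.4% as lower, so 1 call in 10 genes lies near the background. None of the 3 genes named in the mutant was called, nor were the 3 core subunits. RNA levels are in FPKM, fragments scaled by transcript length and library size, so levels of different genes can be set side by side.

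Among the 3 targeted genes, ATX3 (AT3G61740; chromosome 3, 22850837 to 22856972, on TAIR10) had 4.38 FPKM in atx3/4/5 and 4.17 in wild type (q = 0.941, the authors' deposited table). ATX5 (AT5G53430; chromosome 5, 21677146 to 21683494) had 3.76 FPKM in atx3/4/5 and 3.93 in wild type (q = 0.945, the authors' deposited table). ATX4 (AT4G27910; chromosome 4, 13894694 to 13900474) had 2.88 FPKM in atx3/4/5 and 1.05 in wild type, a log2 ratio of 1.46 that was not called (q = 0.0541, the authors' deposited table). Summed over the 3 genes the level in atx3/4/5 was 1.20 times that in wild type. A level over the whole locus does not check a genotype whose alleles are not given, so the libraries are named as labelled. ATX4 and ATX5, like ATX1 and ATX2, are related pairs, and how reads that match both genes of a pair were counted is not stated.

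Among the methyltransferases that the mutant was not named for, SDG2 (AT4G15180; chromosome 4, 8651406 to 8662587) had 3.55 FPKM in atx3/4/5 and 0.884 FPKM in wild type. This was higher by 4.02-fold (q = 0.00184, the authors' deposited table), and the call is lost where an FPKM of at least 1 is required in both genotypes. ATX1 (AT2G31650; chromosome 2, 13455272 to 13462181) had 3.19 FPKM in atx3/4/5 and 1.16 FPKM in wild type. Its ratio of 2.75 was not called (q = 0.0520, the authors' deposited table). SDG25 (AT5G42400; chromosome 5, 16954469 to 16960671) had 1.62 FPKM in atx3/4/5 and 0.720 FPKM in wild type (q = 0.151, the authors' deposited table). ATX2 (AT1G05830; chromosome 1, 1754244 to 1761817), the close relative of ATX1, had 5.59 FPKM in atx3/4/5 and 3.26 FPKM in wild type (q = 0.287, the authors' deposited table). The summed level of these 4 genes was 13.9 FPKM in atx3/4/5 and 6.02 FPKM in wild type, a ratio of 2.32.

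Of the core subunits, WDR5A (AT3G49660; chromosome 3, 18413613 to 18415579), a WD40 repeat protein that holds the complex together, had 3.10 FPKM in atx3/4/5 and 1.51 FPKM in wild type (q = 0.257, the authors' deposited table). ASH2R (AT1G51450; chromosome 1, 19074371 to 19076520), the relative of animal ASH2, had 2.89 FPKM in atx3/4/5 and 2.66 FPKM in wild type (q = 0.912, the authors' deposited table). RBL (AT3G21060), the relative of RbBP5, had 3.94 FPKM in atx3/4/5 and 2.39 FPKM in wild type (q = 0.779, the authors' deposited table). RBL shares its locus (chromosome 3, 7377434 to 7383980) with AT3G21070 in that table, so its level and its peaks are uncertain.

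**Figure D1:**
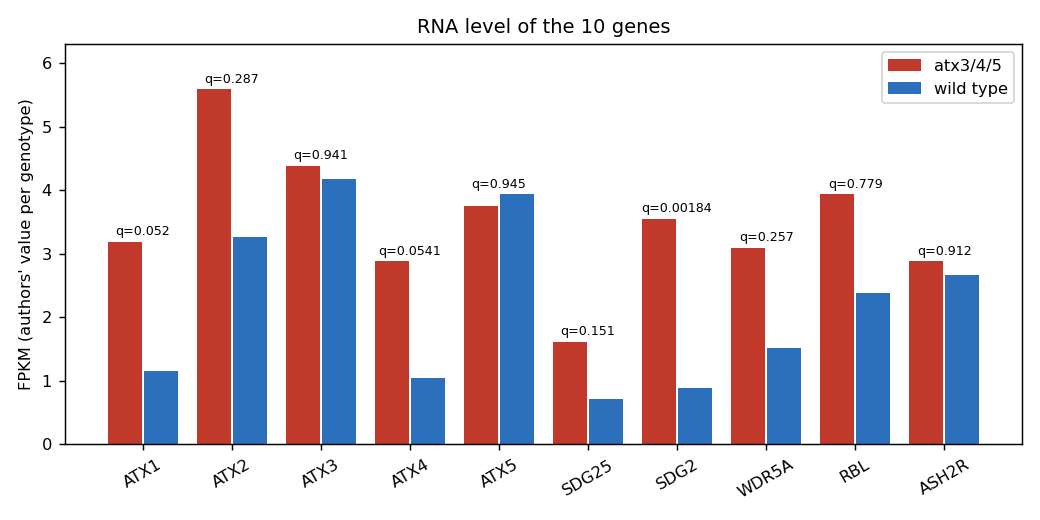
Bars give the FPKM of each of the 10 genes in atx3/4/5 (left bar) and wild type (right bar), 1 value per genotype from the authors, with the q of the authors' deposited table above. The bars of SDG2, 3.55 in atx3/4/5 and 0.884 in wild type, are the only pair with a q under 0.05, and those of ATX3, ATX5 and ASH2R are nearly level.

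All 10 genes were weakly expressed. Their wild-type levels lay between the 5.58 and the 32.5 percentile of the tested genes, whose median was 9.09 FPKM, and in atx3/4/5 they lay between the 14.0 and the 37.0 percentile around a median of 9.22 FPKM. In wild type the order ran from ATX3 through ATX5, ATX2, ASH2R, RBL, WDR5A, ATX1, ATX4 and SDG2 down to SDG25. In atx3/4/5 ATX2 stood first, followed by ATX3, RBL, ATX5, SDG2, ATX1, WDR5A, ASH2R, ATX4 and SDG25. Neighbours in either order cannot be separated without a spread. The 4 genes lowest in wild type (SDG25, SDG2, ATX4 and ATX1) were also the 4 with the largest ratios, and the wild-type level is the denominator of that ratio. They were also the 4 whose p, before adjustment, was under 0.05 in the authors' deposited table. Such a p with a higher level was found for 11.9% of the tested genes.

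The ratio was above 1 for 9 of the 10 genes, with ATX5 as the exception, and 48.6% of all tested genes had a ratio above 1. The median log2 ratio of the 10 was 0.91, and it was -0.06 over the 16448 genes with at least 1 FPKM in both genotypes. Locus length moves with this value. The median log2 ratio was -0.64 in the shortest length decile and 0.68 in the longest, which starts at 4337 bp, and 8 of the 10 genes fall in the longest decile, RBL by its shared locus. In that decile 84.7% of 1577 genes had a ratio above 1, 14.7% were called as higher by the authors' deposited table, and 35.5% had a higher level and a p under 0.05 before adjustment. The decile medians, in contrast, are over genes with at least 1 FPKM in both genotypes. SDG2 and SDG25 were below that in wild type, at 0.884 and 0.720 FPKM, so they are centred on a set that leaves them out. Relative to the median of its own decile, SDG2 stood at 1.33 in log2, WDR5A at 1.20, ATX4 and ATX1 both at 0.78, SDG25 at 0.49, ASH2R at 0.28 and ATX2 at 0.10. ATX3 stood at -0.61 and ATX5 at -0.75, so both targeted genes lay below the median of genes of their length, and for ATX3 the sign turned. The median over the 9 genes with a locus of their own was 0.49 after this centring. The part of gene length in the ratios of single genes was not tested.

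**Figure D2:**
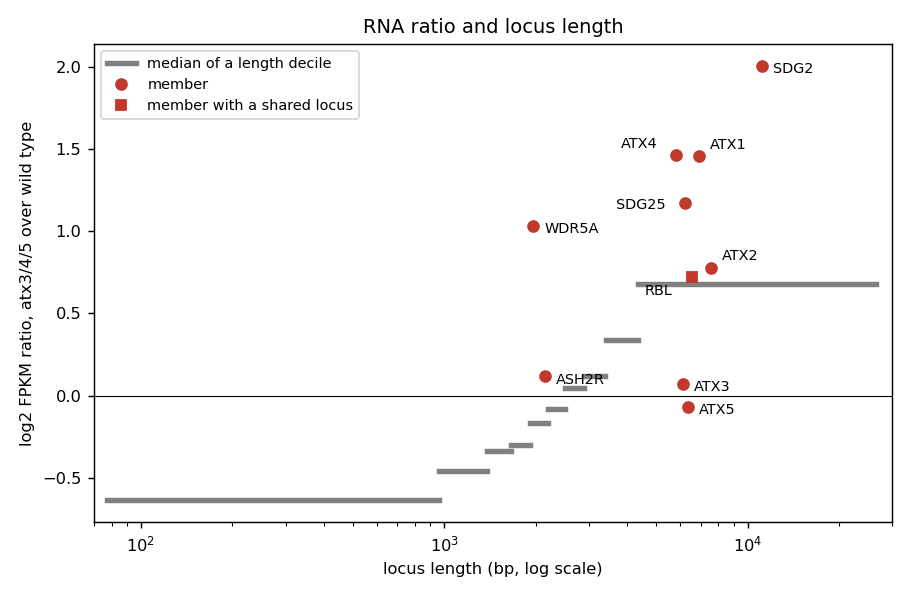
Points give the log2 FPKM ratio of each gene, atx3/4/5 over wild type, against locus length in bp on a log axis, and grey lines give the median ratio within each length decile of expressed genes. The medians climb from -0.64 to 0.68 with length, SDG2 lies highest at 2.01, and ATX3 and ATX5 lie below the median of the longest decile.

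The tissue label was checked with marker genes. The leaf genes RBCS1A, RCA and LHCB1.1 stood between 2165 and 9297 FPKM in atx3/4/5 and between 2397 and 16497 FPKM in wild type, and 1 of these 3, LHCB1.1, was called, as lower, in the authors' deposited table. The 10 markers of flowers, shoot meristem, root hairs and seeds summed to 11.4 FPKM in atx3/4/5 and 6.15 FPKM in wild type, of which the meristem gene STM made up 9.10 FPKM in atx3/4/5 and 5.20 FPKM in wild type. Of these 10 markers 3 were tested and none was called in the authors' deposited table, but all 3 had a higher level in atx3/4/5, with a median log2 ratio of 1.81. The flower gene AP3 had 0.734 FPKM in atx3/4/5 and 0.184 FPKM in wild type, a ratio of 3.98 close to that of SDG2 (p = 0.0922 before adjustment, the authors' deposited table). PI, also a flower gene, had 1.07 FPKM in atx3/4/5 and 0.303 FPKM in wild type, a ratio of 3.51 (p = 0.0523 before adjustment, the authors' deposited table). AP3 was below 1 FPKM in both genotypes, and PI in wild type. The flower gene AG, not tested, had 0.316 FPKM in atx3/4/5 and 0.182 FPKM in wild type, a ratio of 1.74. The root hair gene COBL9, also not tested, was lower in atx3/4/5, with 0.0519 FPKM against 0.0636 FPKM in wild type. All 3 leaf genes had a lower level in atx3/4/5. RBCS1A and LHCB1.1, at -0.83 and -1.79 in log2, fall in a decile of short loci (959 to 1380 bp) with a median of -0.46. RCA stood at -0.15 in log2, in a decile (2500 to 2882 bp) with a median of 0.04. The part of locus length in these ratios was not tested. The meristem genes WUS and CLV3 and the seed gene CRA1 were listed at 0 in wild type, the seed gene OLEO1 at 0 in atx3/4/5, and the root hair gene EXPA7 at 0 in both. The part of such cells in the RNA ratios was not tested. In whole leaves, fewer cells of a type and less RNA per cell cannot be told apart.

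The chromatin of these loci carried both marks. All 10 loci were overlapped by a peak, by at least 1 bp, in both H3K4me2 lists and in the H3K4me3 lists of atx3/4/5 and wild type, and 9 of 10 in the H3K4me3 list of sdg2. With at least 10% of the locus covered, the H3K4me3 counts were 7 in atx3/4/5, 6 in sdg2 and 7 in wild type. Both H3K4me2 counts stayed at 10. Among 33278 nuclear genes the share with H3K4me2 was 44.7% in atx3/4/5 and 54.6% in wild type. For H3K4me3 that share was 47.4% in atx3/4/5, 49.5% in sdg2 and 50.2% in wild type. In the longest length decile 64.6% of genes carried H3K4me2 in atx3/4/5 and 69.4% in wild type, and 57.3%, 59.7% and 61.4% carried H3K4me3 in atx3/4/5, sdg2 and wild type. These shares use the 1 bp rule and include genes not tested for RNA, while all 10 genes were tested. Shares over tested genes alone were not computed.

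In wild type H3K4me3 formed a single peak across 1 end of the locus at 9 of the 10 genes. The strand was not used here, so ends are named by coordinate. At ATX2, ATX4, ATX5, SDG2, WDR5A, RBL and ASH2R the peak crossed the lower end, and at ATX1, ATX3 and SDG25 the upper end. The peak of SDG2 reached from 123 bp outside the locus to 1274 bp inside it, and that of ATX5 from 86 bp outside to 1148 bp inside. At SDG25 the wild-type peak lay mostly outside, with 667 bp beyond the locus and 196 bp within it. RBL had a pair of peaks, 1 at each end of the shared locus. The peak at its lower end, 3309 bp wide in wild type, extended 2114 bp beyond the locus and covered the whole of the neighbouring gene PSBTN, so it cannot be given to RBL alone.

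H3K4me2 reached deeper into the same loci. In wild type it covered between 24.2% of the locus at ATX5 and 74.4% at SDG25, with a median of 57.7%, and H3K4me3 covered between 3.16% at SDG25 and 58.3% at ASH2R, with a median of 16.2%. Over all nuclear genes with a peak the medians were 58.5% for H3K4me2 and 37.8% for H3K4me3, and in the longest decile 44.3% and 15.3%. The H3K4me2 length exceeded the H3K4me3 length at 9 of 10 loci in atx3/4/5 and at 10 of 10 in wild type. The exception, ATX2, had 1139 bp of H3K4me2 and 1177 bp of H3K4me3 in atx3/4/5. Summed over the 10 loci, 86.0% of the H3K4me3 bases in atx3/4/5 and 87.1% in wild type lay under an H3K4me2 peak as well. Neither these shares nor the counts of loci with more H3K4me2 were computed over other genes. They are therefore not shown to be particular to these loci. At SDG2 the wild-type H3K4me2 peaks ran from base 317 to base 7367 of its 11182 bp, with gaps, and the rest of the locus to the upper end had no peak of either mark.

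**Figure D3:**
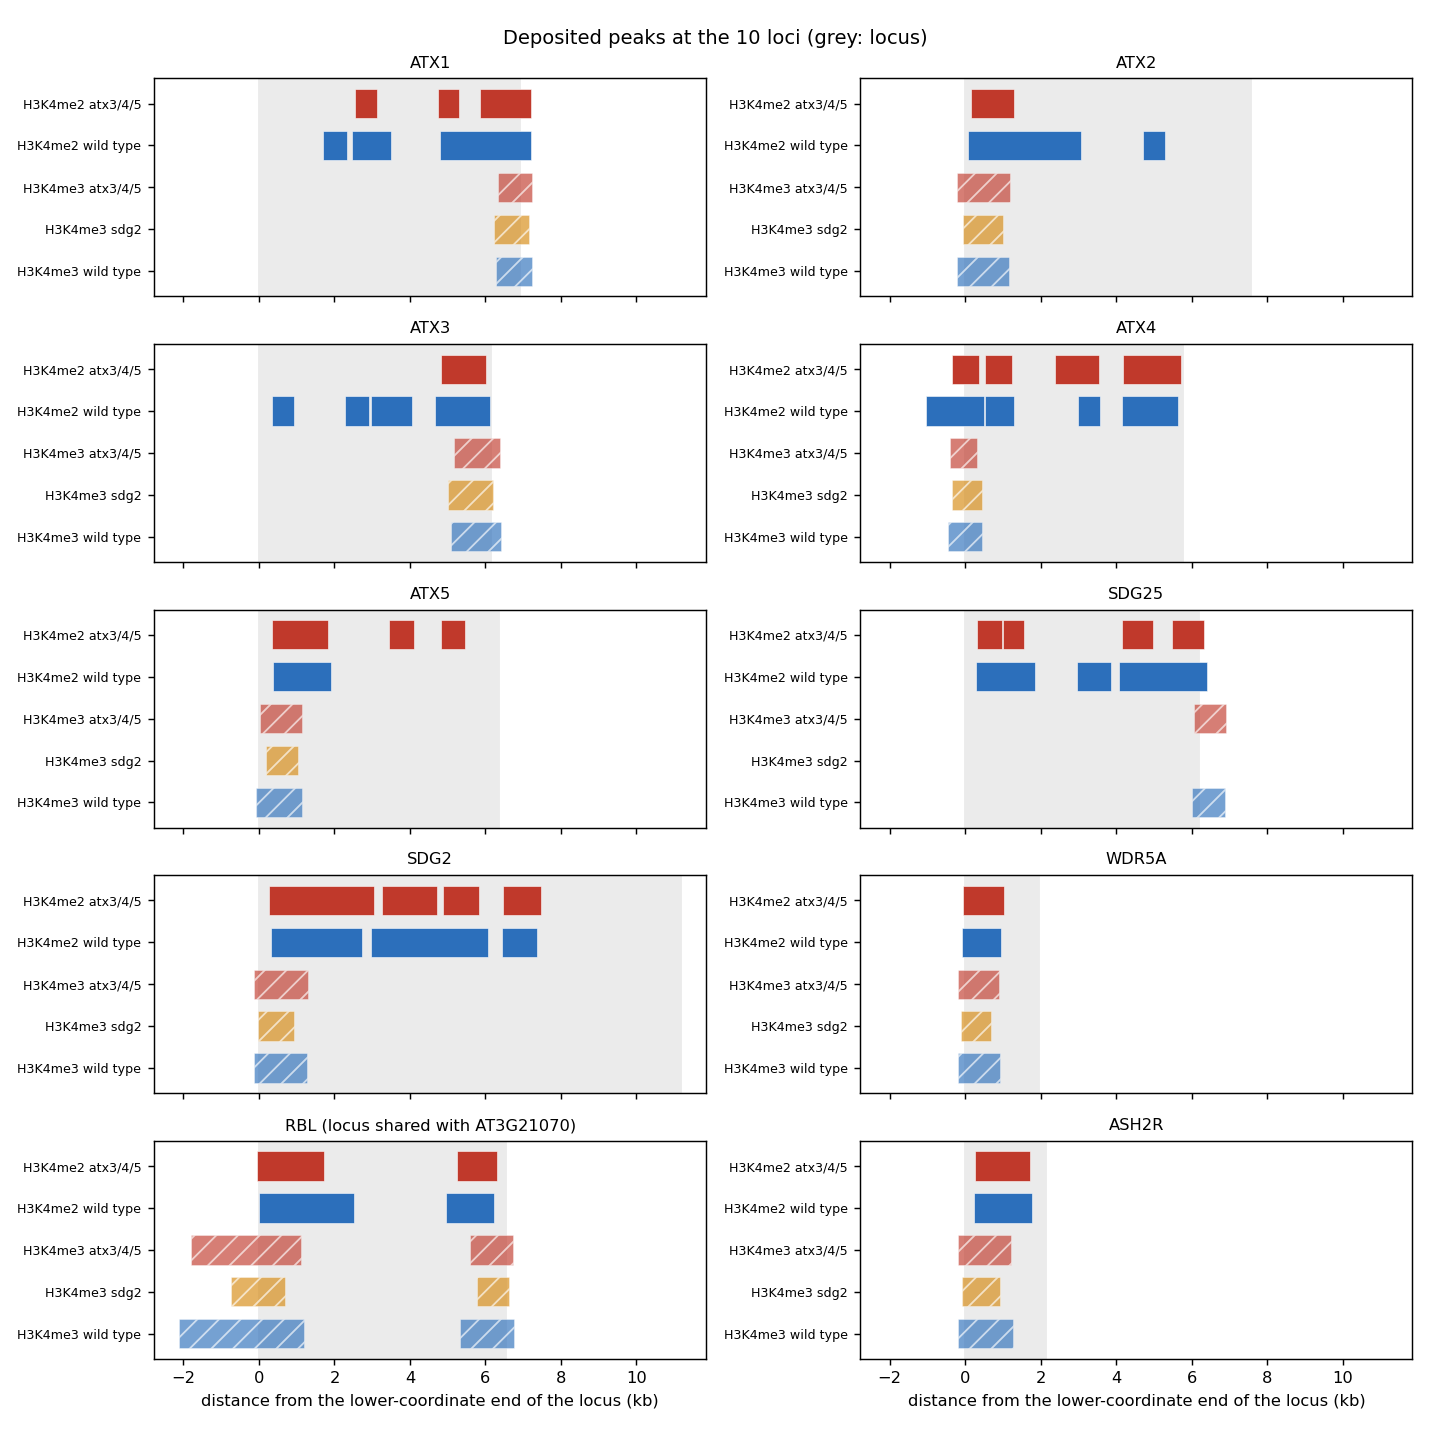
Each panel shows 1 locus in grey, drawn in kb from its lower-coordinate end, with the deposited peaks that overlap it, H3K4me2 in atx3/4/5 and wild type as plain bars and H3K4me3 in atx3/4/5, sdg2 and wild type as hatched bars. H3K4me3 lies at an end of each locus, H3K4me2 extends into the body, ATX3 and ATX2 have less H3K4me2 in atx3/4/5, ATX5 has 2 weak peaks more, and the H3K4me3 peak of SDG25 in sdg2 is not drawn because it lies 42 bp outside the locus.

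The first chromatin comparison, H3K4me2 in atx3/4/5 against wild type, gave unlike values for the 3 targeted loci. At ATX3 the peaks covered 1202 bp in atx3/4/5 and 3789 bp in wild type, or 31.7% of the wild-type length. Of the 4 wild-type peaks there, 3 had no overlapping peak in atx3/4/5, and the peak at the upper end remained. The absent peaks had scores of 123, 58.4 and 53.8, in a list whose lowest score was 50. With peaks of a score of at least 100 only, ATX3 had 1202 bp in atx3/4/5 and 2543 bp in wild type, or 47.3%. ATX5 had 2781 bp in atx3/4/5 and 1538 bp in wild type, or 181%. The difference came from 2 additional peaks in atx3/4/5 inside the locus, 665 bp wide at chromosome 5, 21680600 to 21681264, and 645 bp wide at chromosome 5, 21681965 to 21682609. Both were weak, with scores of 78.2 and 56.1 in a list whose lowest score was 50, and they were the only peaks at the 10 loci in atx3/4/5 with no wild-type counterpart, in a list where 9.73% of peaks had none. With peaks of a score of at least 100 only, ATX5 had 1471 bp in atx3/4/5 and 1538 bp in wild type, or 95.6%, so the direction turned. At ATX4 the peaks covered 3810 bp in atx3/4/5 and 3340 bp in wild type, or 114%, and here too the direction turned with scores of at least 100, at 2696 bp in atx3/4/5 and 2762 bp in wild type (97.6%). There the peak in the middle of the locus was 1183 bp wide in atx3/4/5 and 578 bp in wild type, while the peak over the lower end was 719 bp wide in atx3/4/5 and 1535 bp in wild type.

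Outside the targeted loci, ATX2 had 1139 bp of H3K4me2 in atx3/4/5 and 3536 bp in wild type, or 32.2% of the wild-type length. The mutant peak ended at base 1286 of the locus, the main wild-type peak at base 3058, and a second, weaker wild-type peak had no overlapping peak in atx3/4/5. ATX1 had 2187 bp in atx3/4/5 and 3768 bp in wild type (58.0%), and SDG25 had 2745 bp in atx3/4/5 and 4612 bp in wild type (59.5%). Both values depend on weak peaks: with scores of at least 100 only, ATX1 had 1049 bp in atx3/4/5 and 2741 bp in wild type (38.3%), and SDG25 had 819 bp in atx3/4/5 and 3694 bp in wild type (22.2%). In SDG2, the gene with more RNA in atx3/4/5, the H3K4me2 length was 6182 bp in atx3/4/5 and 6444 bp in wild type, or 95.9%. The core subunit genes had 73.6% at the shared RBL locus, 94.5% at ASH2R and 109% at WDR5A.

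Over the 10 loci, 2 (ATX3 and ATX2) had less than 50% of the wild-type H3K4me2 length in atx3/4/5, where 33.8% of the 18180 nuclear genes with a wild-type peak did and 32.4% in the longest length decile. With peaks of a score of at least 100 only, the count was 4, ATX1 and SDG25 being added, where 43.1% of all genes with such a wild-type peak were below 50%. The length was lower in atx3/4/5 at 7 of 10 loci, at 87.5% of all such genes and at 89.1% of those in the longest decile. Of the 24 wild-type H3K4me2 peaks at the 10 loci, 6 had no overlapping peak in atx3/4/5, where 31.5% of all wild-type peaks had none. The median of the 10 was 84.1% of the wild-type length, and 94.5% without RBL, against 71.0% over all marked genes and 66.1% in the longest decile. With 1 library per genotype and no depth, a shorter covered length cannot be told apart from a library with fewer reads.

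H3K4me3 in atx3/4/5 differed less in length. No locus had less than 50% of the wild-type length, where 10.1% of 16692 genes with a wild-type peak did and 8.74% in the longest decile. A lower length was found at 8 of 10 loci, at 64.4% of all such genes and at 64.2% in the longest decile. The full width of the main peak was lower at 7 of 10 genes, and at 63.6% of all wild-type peaks with a counterpart. The median was 93.9% of wild type for the 10 loci and 96.3% for all marked genes. ATX4 had the lowest value, 318 bp in atx3/4/5 and 456 bp in wild type (69.7%). That peak had a score of 85.8 in atx3/4/5, at the 3.95 percentile of its own list, so it is lost when a score of at least 100 is required. The wild-type peak of ATX4 stood at the 15.0 percentile of its list with a score of 230, and lists of different lengths give no change in rank. SDG25 followed at 74.5%, with 146 bp in atx3/4/5 and 196 bp in wild type. ATX3 had 965 bp in atx3/4/5 and 1051 bp in wild type, and ATX5 had 1103 bp in atx3/4/5 and 1148 bp in wild type. SDG2 had 1307 bp in atx3/4/5 and 1274 bp in wild type, or 103%, so the length of H3K4me3 inside its locus was close to that of wild type while its RNA was higher by 4.02-fold in the authors' deposited table.

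**Figure D4:**
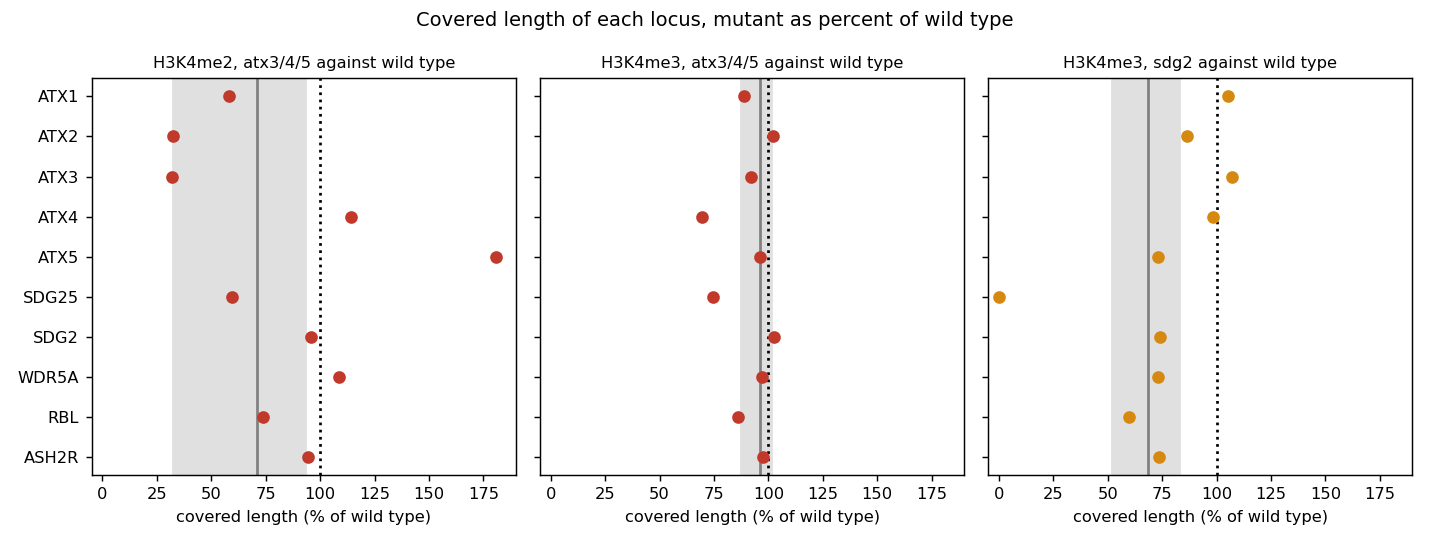
Points give the peak-covered length of each locus in the mutant as a percent of wild type, for H3K4me2 in atx3/4/5, H3K4me3 in atx3/4/5 and H3K4me3 in sdg2, with the median (grey line) and middle 50% (grey band) of all marked nuclear genes. H3K4me2 in atx3/4/5 ranges from 31.7% at ATX3 (47.3% with scores of at least 100) to 181% at ATX5 (95.6% with such scores). H3K4me3 in sdg2 ranges from 0 at SDG25, whose sdg2 peak begins 42 bp beyond the locus (65.8% with 500 bp added on both sides), to 107% at ATX3.

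In sdg2, the H3K4me3 peaks of these genes were narrower, as they were across the genome. Taking the whole peak, inside and outside the locus, the main wild-type peak was wider than its sdg2 counterpart at 10 of 10 genes, and at 95.8% of 13133 wild-type peaks with a counterpart. The median sdg2 width was 70.9% of wild type for the 10 genes and 67.6% for all such peaks. At SDG2 itself the peak was 958 bp wide in sdg2 and 1397 bp in wild type (68.6%), with the same order of size at ASH2R (992 bp in sdg2 and 1437 bp in wild type) and WDR5A (797 bp in sdg2 and 1106 bp in wild type). The widest peak, at the lower end of the RBL locus, was 1421 bp wide in sdg2 and 3309 bp in wild type (42.9%). The least narrowed were 3 genes of the ATX group, ATX1 at 95.4%, ATX3 at 91.0% and ATX4 at 87.3% of the wild-type width. ATX5 was at 67.8% and ATX2 at 76.5%.

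Within the locus bounds, ATX1 had 677 bp of H3K4me3 in sdg2 and 644 bp in wild type, and ATX3 had 1125 bp in sdg2 and 1051 bp in wild type. Within these bounds they were the 2 loci with more covered length in sdg2 than in wild type, where 92.4% of marked genes, and 92.9% in the longest decile, had less. With 500 bp added on both sides, ATX1 had 916 bp in sdg2 and 960 bp in wild type (95.4%), so its direction turned. ATX3 then had 1408 bp in sdg2 and 1317 bp in wild type (107%), although its main peak was narrower in sdg2, at 1199 bp. ATX4 had 449 bp in sdg2 and 456 bp in wild type. The peak of ATX4 stood at the 72.7 percentile of scores in the sdg2 list, with a score of 745. SDG25 was the only locus of the 10 below 50% of the wild-type length, where 23.2% of marked genes were and 22.5% in the longest decile. Its sdg2 peak (chromosome 5, 16960714 to 16961315), 602 bp wide, began 42 bp beyond the locus. With 500 bp added on both sides of the locus the SDG25 value became 65.8% and no gene was below 50%. The median over the 10 loci was 73.6%, against 68.6% over all marked genes.

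**Figure D5:**
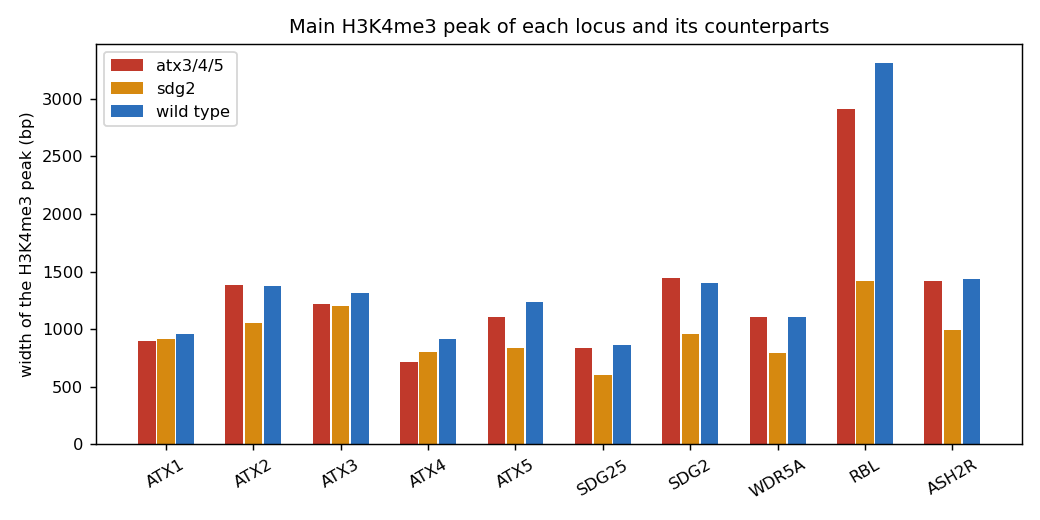
Bars give the full width in bp of the main wild-type H3K4me3 peak of each gene and of its counterpart in atx3/4/5 (left), sdg2 (middle) and wild type (right). The sdg2 bar is shorter than the wild-type bar for all 10 genes, most of all for RBL at 1421 bp in sdg2 and 3309 bp in wild type, and the least narrowed are ATX1, ATX3 and ATX4.

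Both mutants were set against the same wild-type H3K4me3 list. The full width of the SDG2 peak was 1440 bp in atx3/4/5, 958 bp in sdg2 and 1397 bp in wild type. For the ATX4 peak it was 712 bp in atx3/4/5, 799 bp in sdg2 and 915 bp in wild type. No wild-type H3K4me3 peak at the 10 genes was without a counterpart in atx3/4/5 or in sdg2. Across the whole list of 14496 wild-type peaks, 13069 had a counterpart in atx3/4/5 and 13133 in sdg2. A count of 0 absent among 11 peaks therefore lies near the background.

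A further 33 genes were drawn up as 5 lists of H3K4 methylation and related chromatin factors, and not all of them act on H3K4. Of these 33 genes 30 were tested, and the authors' deposited table called 2 as higher and none as lower. That is 6.67% higher, against 4.92% of all tested genes and 14.7% of the longest length decile, in which 12 of the 30 fall. Both belong to the list of other SET domain genes, of which 8 of 9 were tested (median log2 ratio 0.90). SDG8, known mainly for H3K36 methylation, had 3.31 FPKM in atx3/4/5 and 0.963 FPKM in wild type (q = 0.0127, the authors' deposited table). SWN, an H3K27 methyltransferase of Polycomb, had 6.71 FPKM in atx3/4/5 and 2.10 FPKM in wild type (q = 0.0205, the authors' deposited table). The most abundant of that list in wild type, ASHH3, had 7.65 FPKM in atx3/4/5 and 10.6 FPKM in wild type.

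Each of the 7 tested H3K4 demethylase genes had a ratio above 1, with a median log2 ratio of 1.01 and no call in the authors' deposited table. Of these 7, 5 lie in the longest length decile, where 84.7% of tested genes had a ratio above 1, while 48.6% of all tested genes had one. The median log2 ratio of that decile was 0.68 over genes with at least 1 FPKM in both genotypes. JMJ14, the most abundant of them, had 7.29 FPKM in atx3/4/5 and 2.98 FPKM in wild type. The 6 genes of the PAF1 complex, which couples elongating RNA polymerase to H3K4 methylation, had a median log2 ratio of 0.65 and no call in the authors' deposited table. VIP3, the most abundant of the PAF1 genes, had 28.0 FPKM in atx3/4/5 and 34.9 FPKM in wild type, at a shared locus. Among the 6 genes of H2B monoubiquitination, a step that precedes H3K4 methylation in yeast, the median was 0.08, with UBC1 at 169 FPKM in atx3/4/5 and 308 FPKM in wild type, and none was called in the authors' deposited table. The 3 COMPASS accessory genes had a median of 0.29 and no call in the authors' deposited table. S2LB, a SWD2-like subunit and the most abundant of these 3, had 51.9 FPKM in atx3/4/5 and 90.7 FPKM in wild type. Before adjustment, 10 genes of the 5 lists had a p under 0.05 in the authors' deposited table, all with a higher level in atx3/4/5. That is 33.3% of the 30, against 11.9% of all tested genes and 35.5% of the longest decile. They were 5 of the demethylases, 3 of the other SET domain genes, 1 PAF1 gene and 1 gene of H2B monoubiquitination. The median log2 ratio over the 30 tested genes was 0.78. H3K4me3 overlapped 28 of the 33 loci in atx3/4/5, 25 in sdg2 and 28 in wild type. Over all nuclear genes the shares were 47.4%, 49.5% and 50.2%, and in the longest decile 57.3%, 59.7% and 61.4%. With 1 library per list, the lower count in sdg2 was not tested.

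The genes most like SDG2 were sought over 7 values, the RNA level in both genotypes and the percent of the locus covered in the 5 peak lists, among 15658 tested genes with a locus of their own. The nearest were AT3G22980, AT1G05910 and AT2G47680, at distances of 0.27, 0.32 and 0.36 in SD units, where the median gene was at 2.73. AT2G47680 had 4.19 FPKM in atx3/4/5 and 1.24 FPKM in wild type (q = 0.0186, the authors' deposited table). AT1G05910 had 3.70 FPKM in atx3/4/5 and 1.80 FPKM in wild type, and AT3G22980 had 3.44 FPKM in atx3/4/5 and 1.45 FPKM in wild type. Nearest to ATX4 were AT3G15120, AT5G07980 and SPI (AT1G03060), at distances of 0.32, 0.36 and 0.40, where the median gene was at 2.94. Of these 3, SPI was called in the authors' deposited table, with 3.64 FPKM in atx3/4/5 and 0.972 FPKM in wild type. Since the RNA level in both genotypes was part of the search, ratios close to those of SDG2 and ATX4 follow from the choice of genes. The calls of SPI and AT2G47680 are therefore no separate result.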

How the data were processed

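The authors' deposited RNA table holds, for every gene, an FPKM value for atx3/4/5 and for wild type, with a p-value, a q-value and a status. The submitters' processing notes name Cufflinks 2.2.1, TopHat2 2.0.10, Bowtie 1.0.1, MACS 1.4.2 and the TAIR10 build, without saying which tool made which file. The 5 deposited peak lists give a score per peak, assumed to be the caller's -log10 p-value times a constant and used to rank or filter within a list. Peak names in the lists carry the name of MACS, and each list belongs to 1 ChIP sample and is named as set against an input. Read depth and the use of strand are not given in the sources used here.

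Calls are those of the authors' deposited table (status OK, q under 0.05), and nothing says whether its 2 libraries per genotype came from separate plants. Fold changes are ratios of FPKM, atx3/4/5 over wild type, with no pseudocount. Covered length is the number of locus bases under a peak, computed with Python 3.11.15 and numpy 2.4.6 and tested on simulated loci. Locus and peak starts, deposited counting from 0, were moved to count from 1. Length deciles were set on expressed genes with a locus of their own. The longest decile was then compared over all tested genes of that length for RNA and over all such nuclear genes for peaks. Gene names come from RefSeq (TAIR10.1), which held all 10 identifiers. Of the per-sample columns, 0 went unused. The named genes are the 10, every called gene and the most abundant gene of each further list, and the 3 nearest profiles to SDG2 and to ATX4. Tissue markers are named as a check, and the neighbours named were chosen after their values were seen. The members and lists were chosen with earlier results of these data known.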

Additional observations from a re-analysis of the deposited data

How the results depend on the processing

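Of the RNA results, the number of called members was 1 at a q under 0.05 or 0.01 and without RBL, 4 at an unadjusted p under 0.05, and 0 where 1 FPKM is required in both genotypes, since SDG2 stands below that in wild type. The median log2 ratio of 0.91 became 0.62 with a pseudocount of 1, 0.75 with at least 1 FPKM in both genotypes and 1.03 without RBL. Centring within length deciles, possible for the 9 members with a locus of their own, gave 0.49, against 1.03 for the same 9 uncentred. The log2 ratio of ATX3 turned to -0.61 after centring within length deciles, and no other member changed sign under the pseudocounts or centrings tried, of which RBL had no length centring. Members with less than 50% of the wild-type length numbered 4 for H3K4me2 and 1 for H3K4me3 in atx3/4/5 with scores of at least 100, and 0 for H3K4me3 in sdg2 with 500 bp added on both sides, where 43.1%, 10.6% and 24.5% of all marked genes did. Below 75% of the wild-type length were 5 members for H3K4me2 and 2 for H3K4me3 in atx3/4/5, and 6 for H3K4me3 in sdg2, where 53.4%, 14.7% and 61.2% of all marked genes were. With scores of at least 100, H3K4me2 in atx3/4/5 was 95.6% of wild type at ATX5 and 97.6% at ATX4, both above 100% otherwise. The median H3K4me2 cover was 32.9% in atx3/4/5 and 48.0% in wild type with scores of at least 100, and 37.7% and 50.7% with 500 bp added on both sides. The cause of these shifts was not tested. Leaving out RBL was chosen after seeing the data. Leaving out single libraries was not run, since the table holds 1 value per genotype. No paired analysis was possible because the columns carry no replicate.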

Other observations

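The genes next to the 10 loci were looked at on both sides. Of these 20 neighbours 14 were tested, and none was called higher or lower in the authors' deposited table. Among all tested genes 4.92% were called as higher and 5.4% as lower, so no call in 14 genes lies near the background. The median log2 ratio of the 14 was -0.02, and 7 of the 14 lay above 0, where 48.6% of all tested genes did. Before adjustment 4 neighbours had a p under 0.05 in the authors' deposited table, AT3G61750 beside ATX3, AT5G53420 beside ATX5 and PSBTN beside RBL with a lower level in atx3/4/5, and AT3G21080 beside RBL with a higher one. Such a p with a higher level was found for 11.9% of all tested genes, and the share with a lower level was not computed. Beside SDG2, the tested neighbour AT4G15165 had 2.49 FPKM in atx3/4/5 and 2.13 FPKM in wild type, and FH3 on the other side was listed at 0 in both. Beside ATX5, AT5G53420 had 9.25 FPKM in atx3/4/5 and 23.7 FPKM in wild type (q = 0.0577, the authors' deposited table). H3K4me3 covered 71.8% of the AT5G53420 locus in atx3/4/5, none of it in sdg2 and 61.3% in wild type. For AT4G27900, beside ATX4, it covered 39.3% in atx3/4/5, none in sdg2 and 35.9% in wild type. RMF, beside ATX3 at a gap of 361 bp, was listed at 0 FPKM in both genotypes, and H3K4me2 covered 22.1% of its locus in atx3/4/5 and 51.0% in wild type. Its H3K4me3 cover was 0 in atx3/4/5, 19.2% in sdg2 and 0 in wild type. Beside ASH2R, AT1G51440 had no peak of either mark in atx3/4/5 and no H3K4me3 peak in sdg2, against 71.4% H3K4me2 cover and 52.4% H3K4me3 cover in wild type. These neighbours were picked after their values were seen. The share of all genes with such a full loss or gain of cover was not computed, so these values are not shown to be particular to them.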
